A study of Mus musculus with 113 samples.

Results

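Single mouse 8-cell (8C) embryos in which a cytosine base editor (BE) had been aimed at *Nr5a2* were compared with single 8C embryos that had received only the editor or only the guide. They were chosen by their sample titles and make up 30 of the 113 samples of the series, of which 92 have an expression file. The study as a whole follows NR5A2 and related nuclear receptors in early mouse embryos by siRNA knockdown (KD), base editing and maps of chromatin. Zygotes of C57BL/6N females mated with PWK/PhJ males were injected with BE mRNA and an *Nr5a2* sgRNA together (BE + sgRNA, 14 embryos, called edited embryos here), with BE mRNA alone (8 embryos) or with the sgRNA alone (8 embryos), each reagent at 100 ng/µL, and each embryo gave 1 Smart-seq2 library at the 8C stage. The BE and the sgRNA embryos, 16 in all, served jointly as controls. Embryos that received no injection were not part of this comparison. The genotype label reads wild type for all 30 embryos, edited ones included, and reads over the target site were not analysed here, so the share of edited transcripts in each embryo was not examined. The study itself reports the share of edited *Nr5a2* reads in single 8C embryos, and depletion of the protein by immunofluorescence. A transcript level in a whole embryo cannot tell fewer expressing cells from less RNA per cell.

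NR5A2 is an orphan nuclear receptor that binds DNA as a single molecule, and it is best known from liver, pancreas, steroid-making tissues and embryonic stem cells, where it acts on the *Pou5f1* gene. In the mouse embryo its gene is switched on with the zygotic genome, before the cells of the embryo take their first separate fates as trophectoderm or inner cell mass. A cytosine base editor carries a deaminase to the site matched by the guide and turns a C into a U that is then read as T, so that a codon such as CGA can become a stop codon without a cut through both strands.

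The target site is shown because everything that follows depends on where the edit falls. The guide lies on the coding (minus) strand of exon 3 of the 9 exons of *Nr5a2*, which spans chr1:138740161-138857004 in mm9 (NCBIM37), at chr1:138845326-138845345, inside the coding sequence. Written 5′ to 3′ with its AGG motif (PAM) at the end and the codon that carries the edited base in capitals, it reads:

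*Nr5a2* guide site and PAM: ggtcCGAtcgcatggggaacagg

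Counted from 1 at the 5′ end of the guide, the change C5T turns codon 75 of 560 from CGA into the stop codon TGA (genome position 138845341), so that 13.2% of the codons come before the stop. The guide holds 5 cytosines, of which those at positions 4 and 5 lie in the stretch from position 4 to 8 that is often taken as the editing window. In a search of the mm9 genome for 20-base sites with an NGG motif and at most 3 mismatches, the only other match was a site with 2 mismatches between genes, at chr3:144442143-144442162 on the plus strand, shown with the 2 differing bases in capitals:

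Nearest other match: ggtcTgatcAcatggggaac

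The libraries were not alike. Their FPKM values (fragments per kilobase of transcript, scaled to the mapped fragments of the library) summed to between 207918 and 474480 in 29 embryos and to 83392 in BE + sgRNA replicate 8, which had 5472 genes at 1 FPKM or more against 7645 to 9526 in the others. The column names of the files give the editor as eBE for some embryos and as BE4 for others, although the methods of the study name only an eBE editor, and whether 2 editors were used was not settled. The library numbers in the column names run from 34 to 61 without a gap. They were split here where the named editor changes, between 47 and 48, into 2 parts. These are called the eBE run (sgRNA replicates 1 to 4, BE replicates 5 to 8 and BE + sgRNA replicates 1 to 6) and the BE4 run (BE replicates 1 to 4, sgRNA replicates 5 to 8 and BE + sgRNA replicates 7 to 12). For embryos with sgRNA alone the column names give no editor, and the run rests on the library number. BE + sgRNA replicates 13 and 14 belong to neither run, and their columns are named for the 4-cell (4C) stage although the sample titles say 8C. On a scale set by genes that differ at least 4-fold between the untargeted siRNA pools of the series, with the 4C pools at 0 and the 8C pools at 1, these 2 embryos lay at -0.026 and 0.178, BE + sgRNA replicate 11 lay at 0.181 and sgRNA replicate 7 at 0.312, while the eBE run lay between 0.56 and 1.015. The 2-cell embryos of the series lay at -0.232 to 0.395, so this scale does not tell the 2-cell from the 4C stage. Between the control embryos of the 2 runs, 970 genes were higher and 60 lower in the eBE run (9.99% of 10308 genes, limma, adjusted p under 0.05). The spread between embryos followed the same line, with a median SD over 5729 genes of 0.422 (log2) in controls and 0.411 in edited embryos of the eBE run, against 0.807 and 1.056 in the BE4 run. Of 20 cumulus and granulosa cell markers, 18 had a mean below 1 FPKM and 9 were at 0 in every embryo, and their sums were 11.7 to 35.3 FPKM in controls and 1.03 to 54.6 in edited embryos, most of it from *Amhr2*, whose mean was 17.9. Of 13 sperm markers 11 had a mean below 1 FPKM, and the sums were 2.14 to 19.8 FPKM in controls and 0.452 to 28.8 in edited embryos. The 6 markers of the 8C embryo were all present, with sums of 1231 to 7820 and 556.1 to 7073 FPKM, most of it from *Dppa3*, whose mean was 3940. *Dppa3* was also abundant in the 2-cell embryos of the series, with means of 1700 FPKM in edited embryos and 962 in controls, so the sum does not tell the stage. The part that these differences play in the results was not tested.

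The transcript of *Nr5a2* itself was not detectably lower in edited embryos. It ranged from 7.98 through a median of 43.3 to 81.3 FPKM in the 16 controls and from 28.8 through 47.9 to 108 FPKM in the 14 edited embryos. The ranges overlapped almost entirely, 9 of 14 edited embryos lay above the control median, and the lowest value of all was that of a control, sgRNA replicate 7. The mean of log2(FPKM + 1) was 0.21 higher in edited embryos, a difference within the spread of the embryos (two-sided permutation test with 100000 resamples, p = 0.415). Without replicates 13 and 14 the difference was 0.11 (p = 0.689), and in the eBE run alone, where controls ran from 35.2 to 51.5 and edited embryos from 29.0 to 68.0 FPKM, it was 0.017 (exact permutation test, p = 0.926). A base change does not by itself take a transcript out of the count. Whether the new stop codon alters the amount of the mRNA was not tested. The level of the *Nr5a2* mRNA therefore does not check the labels of these embryos.

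Across all 30 embryos 13 genes rose and 3 fell in edited embryos (0.133% and 0.0307% of 9760 genes tested, 0.164% in all, limma on log2(FPKM + 1), Benjamini-Hochberg adjusted p under 0.05). No gene reached the limits of the study, an adjusted p under 0.01 and at least a 4-fold change, that is a log2 fold change of 2. At an unadjusted p under 0.05 there were 1058 genes, 10.8% of those tested, 741 of them higher in edited embryos and 317 lower. This excess of higher genes depended on the scaling and on the controls: it was 637 against 579 with median-ratio scaling, 663 against 574 with quantile scaling, and turned to 380 against 564 with the BE embryos alone as controls. No gene separated the 14 edited embryos from the 16 controls completely. The 13 that rose were *Pld2*, *Gdf9*, *Map4k5*, *1700017B05Rik*, *Frk*, *Tekt2*, *Myo5b*, *Efna1*, *Endod1*, *Phyhipl*, *Rfxank*, *Pptc7* and *Fam105a*, and the 3 that fell were *Fdx1*, *Mybpc2* and *Hsd17b1*, with adjusted p of 0.0403 to 0.0461. They stood near the limit of detection of this test: without replicates 13 and 14 no gene passed (smallest adjusted p 0.129, 711 genes at an unadjusted p under 0.05), and without replicate 8 there were 80 that rose and 7 that fell (0.887% of 9806 genes), the same 16 among them. The run as a term gave replicates 13 and 14 a level of their own, so that they added nothing to the fold changes. With this term none of the 16 passed (0 genes called, smallest adjusted p 0.109, 900 genes at an unadjusted p under 0.05). Without replicates 8, 13 and 14 together 10 rose and none fell (0.103% of 9669 genes), 8 of them among the 16. In every one of 16 other settings, each of the 16 genes that was tested kept its direction.

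*Gdf9*, which encodes an oocyte-secreted growth factor, had rank 2 by p among the 16 called genes. Its level was 0.473, 2.59 and 21.3 FPKM (lowest, median and highest) in controls and 7.33, 14.5 and 92.5 FPKM in edited embryos. All 14 edited embryos lay above the control median, but the ranges overlapped, and the highest value was that of replicate 14, one of those with a 4-cell column name. The difference was 1.84 ± 0.38 (log2 fold change ± SE, n = 14 and 16, limma, adjusted p = 0.0459). In the eBE run alone it was 2.29, and in the BE4 run 0.96.

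*Tekt2*, for a filament protein of cilia and sperm flagella, showed the largest fold change among the 16, 2.14 ± 0.45 (log2, limma, adjusted p = 0.0459). It ran from 0 through 1.44 to 15.5 FPKM in controls and from 0 through 11.1 to 72.7 in edited embryos, of which 13 of 14 lay above the control median and 6 above every control. The uncharacterised *1700017B05Rik* behaved alike, from 0.442 through 1.27 to 8.19 FPKM in controls and from 0.625 through 7.38 to 39.7 in edited embryos. Both had their highest values in replicates 13 and 14, and both were higher in the untargeted 4C pools than in the 8C pools of the series, *Tekt2* at 12.4 against 2.40 FPKM and *1700017B05Rik* at 7.54 against 2.18. Within the eBE run the edited embryos (4.46 to 8.95 FPKM for *1700017B05Rik*) still lay above every control (0.442 to 4.44).

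Among genes with a signalling role, *Map4k5*, a kinase of the JNK cascade, had a median of 5.18 FPKM in controls (2.77 to 29.3) and 16.8 in edited embryos (6.41 to 27.97), with all 14 edited embryos above the control median. *Efna1*, a membrane-bound ligand of Eph receptors, had a median of 13.7 FPKM in controls (6.75 to 63.1) and 45.2 in edited embryos (12.1 to 89.3), a log2 fold change of 1.40 ± 0.30. *Rfxank*, a subunit of a factor that drives MHC class II genes, rose least of those above 5 FPKM, from a median of 3.56 FPKM (0.575 to 5.15) to 6.25 (2.93 to 11.7), but 12 of 14 edited embryos lay above every control. The remaining genes that rose were low, with mean levels in edited embryos from 1.27 FPKM for *Myo5b*, a motor protein of vesicle traffic, to 4.60 for *Phyhipl*. *Pld2*, a phospholipase, had the smallest p of all, at 0 to 0.825 FPKM in controls and 0.662 to 3.76 in edited embryos.

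*Fdx1*, the mitochondrial electron carrier of steroid-making P450 enzymes, was the one gene that fell with a substantial level. It ran from 9.41 through 36.4 to 124 FPKM in controls and from 1.68 through 15.2 to 41.5 in edited embryos. The ranges overlapped, with 1 of 14 edited embryos above the control median and 5 below every control, and the difference was -1.72 ± 0.38 (log2, limma, adjusted p = 0.0461). The lowest values included replicates 8, 13 and 14 at 1.81, 1.81 and 2.46 FPKM. In the eBE run alone, controls ran from 24.4 to 124 FPKM and edited embryos from 11.5 to 41.5. The other 2 genes that fell were low: *Hsd17b1*, which converts estrone to estradiol, went from a median of 2.84 to 0.407 FPKM, and *Mybpc2*, a muscle myosin-binding protein, from 4.65 to 0.755. None of the 14 edited embryos lay above the control median for either gene. All 3 genes that fell were lower in the untargeted 4C pools than in the 8C pools, *Fdx1* at 20.2 against 36.2 FPKM, *Hsd17b1* at 1.35 against 7.41 and *Mybpc2* at 0.923 against 4.81.

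**Figure D1:**
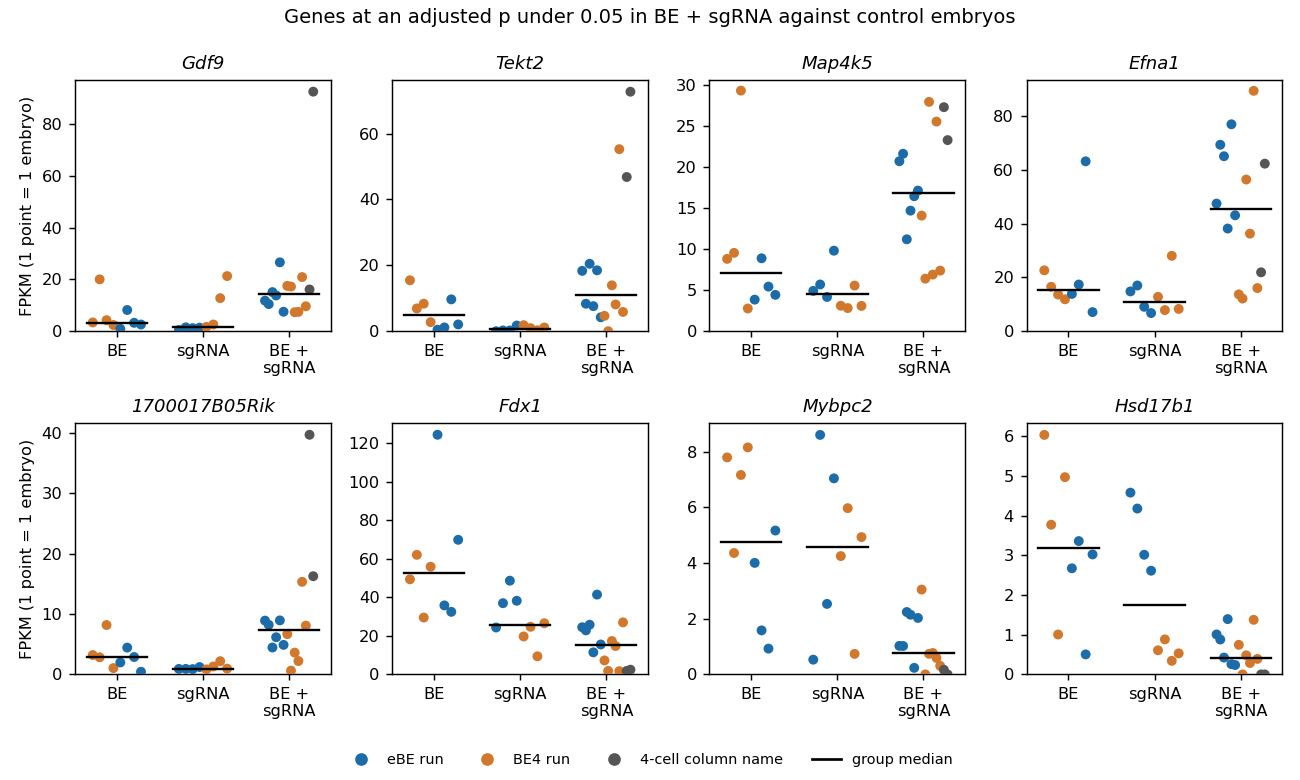
Levels of *Gdf9*, *Tekt2*, *Map4k5*, *Efna1*, *1700017B05Rik*, *Fdx1*, *Mybpc2* and *Hsd17b1* in each embryo (vertical axis, FPKM from 0) by group, with a line at the group median. The first 5 have medians of 14.5, 11.1, 16.8, 45.2 and 7.38 FPKM in edited embryos against 2.59, 1.44, 5.18, 13.7 and 1.27 in controls, and the last 3 are lower in edited embryos, each gene with overlapping ranges.

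*Nanog*, *Pou5f1* and the other genes that the study names for NR5A2 at 8C gave no call over all 30 embryos, none of the 15 that were tested (median log2 fold change -0.08, against 0.015 over all 9760 genes). *Nanog*, a core pluripotency factor, was nearest. It was 0.996, 9.91 and 31.7 FPKM (lowest, median and highest) in controls and 0.350, 3.94 and 18.6 in edited embryos. Only 1 of 14 edited embryos lay above the control median, with a log2 difference of -1.40 ± 0.40 that missed the threshold (limma, adjusted p = 0.217) and that was alike in both runs, at -1.58 and -1.13. When limma weighted each embryo by its own spread, the adjusted p for *Nanog* was 0.014.

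*Id3*, an inhibitor of basic helix-loop-helix factors that BMP signals induce, had a median of 442 FPKM in controls (56.1 to 872) and 237 in edited embryos (14.8 to 476), and again 1 of 14 edited embryos lay above the control median (log2 difference -1.08, adjusted p = 0.359). *Pou5f1*, the pluripotency factor OCT4, ran from 9.10 through 182 to 323 FPKM in controls and from 22.9 through 153 to 237 in edited embryos (-0.55, adjusted p = 0.680). The 3 lowest edited values of *Pou5f1*, 22.9, 23.0 and 63.2 FPKM, were those of replicates 8, 13 and 14, and without these embryos the difference was -0.10. *Tdgf1*, a NODAL co-receptor, and *Klf5*, a factor of both early lineages, were at -0.60 and -0.41 with all embryos and both at -0.04 without the same 3. *Gata6*, which marks primitive endoderm, was at -0.44 and -0.05 in the same way. Of the trophectoderm genes on the list, *Tead4* was at 0.01, *Tfap2c* at -0.06 and *Gata3* at 0.62 (adjusted p = 0.590). *Fgfr1* and *Fgfr2*, receptors of the FGF pathway, were at -0.07 and -0.10, and *Satb1* and *Rangap1* at -0.08 and 0.02. *Sox2* stayed below the level required for the test.

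*Rarg*, *Nr1h3* and *Nr2c2*, the other nuclear receptors that the study knocked down, were at 0.26, 0.32 and 0.27, and none passed the test. Of 16 nuclear receptor genes tested none was called (median 0.195).

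The eBE run, in which 6 edited embryos faced 8 controls with FPKM sums of 427105 to 474480 throughout, gave more calls than the 30 embryos together. There 26 genes rose and 8 fell (0.265% and 0.0816% of 9804 genes, 0.347% in all), 6 of them among the 16 above. Of these 34 genes, 26 had no overlap between edited and control embryos of the run, and over all genes 52 lay wholly above and 10 wholly below the controls (0.635% of 9760 genes). In the BE4 run no gene was called (209 genes at an unadjusted p under 0.05, smallest adjusted p 0.527). The change in the eBE run was set against that in the BE4 run in 1 fit, added after the counts were seen. There none of 10308 genes passed (268 at an unadjusted p under 0.05, 2.6%, smallest adjusted p 0.999, limma). In that fit the eBE run itself gave no call (688 genes at an unadjusted p under 0.05, smallest adjusted p 0.111). The fit shares 1 estimate of the spread between the 2 runs, so it cannot decide whether the changes differ.

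The genes called in the eBE run moved the same way in the BE4 embryos, which share no embryo with it. All 34 had the same sign there, 26 of 26 higher and 8 of 8 lower, against 59.1% of all genes tested in both runs. Over all genes the share was 44.0% for those higher in the eBE run and 78.3% for those lower, since more genes were lower than higher in edited embryos of the BE4 run. With genes below a mean of 5 FPKM left out, it was 30 of 30 against 58.0%. The changes were smaller in the BE4 run, with a median log2 fold change of 0.56 against 1.45 for the genes that rose and -0.62 against -1.14 for those that fell, and the embryos of that run varied more. The genes called in the eBE run were also read in the untargeted 4C and 8C pools of the series, as a description with no test. The 26 that rose had a median log2 difference of -0.819 between 8C and 4C pools and 76.9% of them were lower at 8C, while the 8 that fell had a median of 1.21 and 12.5% lower, against 0.002 and 49.3% over all genes. The part of stage in the calls of either run was not tested. The 34 genes were chosen by their size in the eBE run, so a smaller value in other embryos is a description and not a test.

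**Figure D2:**
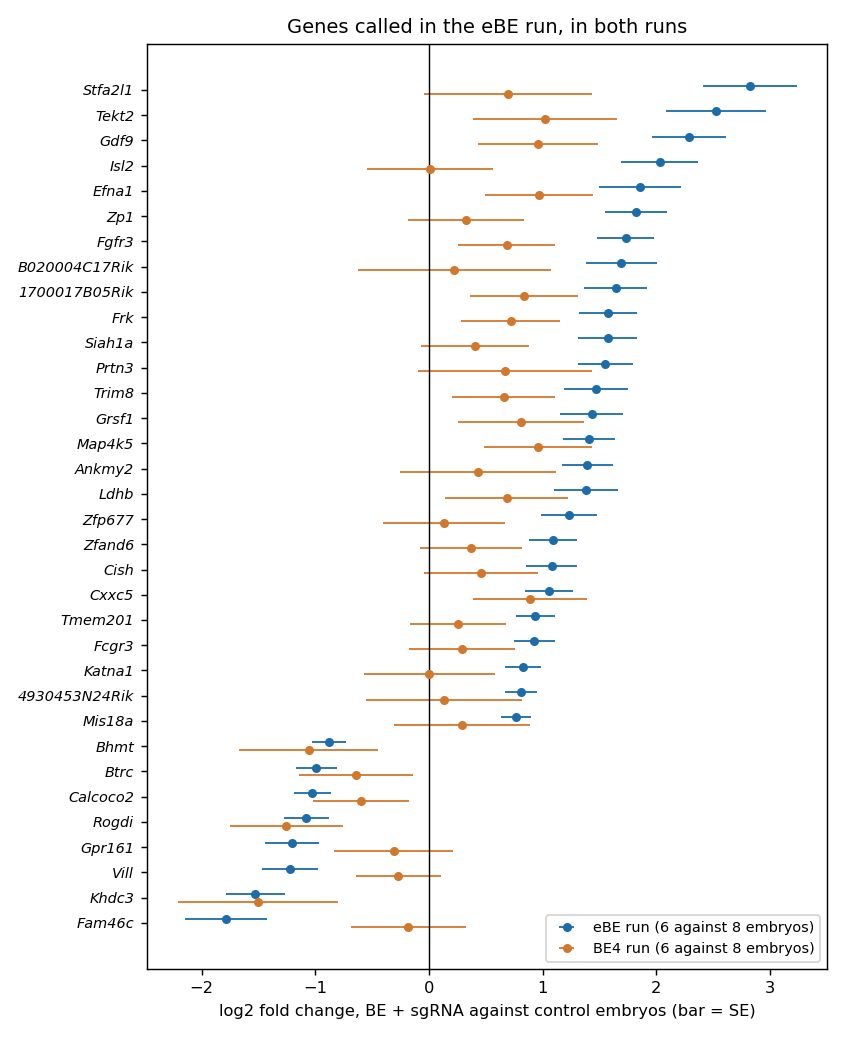
Log2 fold change with its SE (horizontal axis) of the 34 genes called in the eBE run, edited minus control embryos, in the eBE run (6 and 8 embryos) and in the BE4 run (6 and 8 embryos), 1 gene per row. All 34 points of the BE4 run lie on the same side of 0 as those of the eBE run, with wider error bars and smaller values at the median.

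*Calcoco2*, an autophagy receptor, was the most abundant gene that fell in the eBE run. Its 6 edited embryos were at 371, 518 and 687 FPKM (lowest, median and highest) and its 8 controls at 860, 1042 and 1616, with a clear gap between them (log2 fold change -1.03 ± 0.16, limma, adjusted p = 0.0139). In the BE4 run the medians were 351 and 527 FPKM with overlapping ranges. *Bhmt*, which remethylates homocysteine with betaine, was at 294, 316 and 401 FPKM in edited embryos and at 488, 583 and 819 in controls, again without overlap (-0.88 ± 0.15). In the BE4 run its medians were 165 and 352 FPKM, and the ranges overlapped. Both genes were also lower in the untargeted 4C pools than in the 8C pools, *Calcoco2* at 216 against 625.1 FPKM and *Bhmt* at 210 against 524.

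*Khdc3*, a subunit of the maternal complex beneath the oocyte membrane, ran from 71.7 through 81.4 to 166 FPKM in edited embryos of the eBE run and from 155 through 273 to 435 in controls, a change of -1.53 ± 0.26, and it was at 51.9 FPKM in the untargeted 4C pools and 207 in the 8C pools. Over all 30 embryos its log2 difference was -2.09 but missed the threshold (adjusted p = 0.217), and none of the 14 edited embryos lay above the control median. There were 3 further genes that fell in the eBE run without overlap: *Btrc*, the substrate adaptor of a ubiquitin ligase, from a median of 50.1 to 26.5 FPKM, *Rogdi* from 35.9 to 18.8 and *Gpr161*, a ciliary receptor of the Hedgehog pathway, from 45.5 to 20.9. *Rogdi* and *Gpr161* did not follow in every other embryo, since replicates 13 and 14 were at 28.8 and 37.7 FPKM for *Rogdi* and replicate 13 at 48.1 for *Gpr161*.

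*Siah1a*, a ubiquitin ligase, rose from 12.8, 27.8 and 46.8 FPKM in the controls of the eBE run to 57.0, 82.0 and 102 in its edited embryos (1.57 ± 0.26, adjusted p = 0.0143). *Fgfr3*, a receptor of fibroblast growth factors, rose from 0.399, 1.87 and 2.74 FPKM to 5.10, 7.64 and 13.8 (1.73 ± 0.25, adjusted p = 0.0124). Neither gene had overlapping groups in that run, and in the BE4 run the medians of *Fgfr3* were 3.10 in controls and 6.71 in edited embryos. For 2 more genes that rose, both known from blood cells, the gap was as clear: *Prtn3*, a neutrophil protease, had controls of at most 5.42 and edited embryos of at least 7.51 FPKM, and *Stfa2l1*, a protease inhibitor of the stefin family, 3.19 and 6.45. *Cish*, an inhibitor of cytokine signalling, went from a median of 11.7 to 27.7 FPKM, and the narrow range of its edited embryos, 25.5 to 29.7, lay above the highest control at 21.8. *Katna1*, which severs microtubules, *Mis18a*, a centromere licensing factor, and *Grsf1*, a binder of mitochondrial RNA, rose from medians of 34.9, 59.6 and 13.03 to 66.7, 102 and 37.9 FPKM, and none had overlapping groups.

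The remaining calls of the eBE run were of the same kind. *Fam46c*, a poly(A) polymerase, had means of 50.2 and 36.1 FPKM in BE and sgRNA embryos of the run and 13.1 in its edited embryos, the largest fall of the run (-1.79 ± 0.36), while *Vill*, an actin-binding protein, was below 2 FPKM in every group mean. Of those that rose, *Fcgr3*, an immunoglobulin receptor, went from means of 92.8 and 71.2 FPKM to 153, *Zfand6*, a zinc finger protein, from 67.1 and 55.4 to 130, and *Ankmy2* from 20.1 and 11.6 to 40.5. In each pair the BE embryos had the higher mean of the controls, and the edited embryos lay above both. *Isl2*, a LIM-homeodomain factor of motor neurons, had a median of 1.98 FPKM in controls of the run and 13.6 in edited embryos, but it was at 0 in replicates 8 and 13. *Tmem201*, a protein of the inner nuclear membrane, *Trim8*, a ubiquitin ligase, and *Ldhb*, a lactate dehydrogenase subunit, had means of 20.2, 8.64 and 10.8 FPKM in edited embryos against at most 10.5, 2.72 and 3.86 in the 2 control groups. *Frk*, *B020004C17Rik*, *Cxxc5* and *Zfp677* rose to means of 3.69, 5.70, 1.67 and 2.72 FPKM, and each was below 1.6 FPKM in both kinds of control.

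Transcripts that the oocyte deposits were the functional group with the highest median shift over all 30 embryos among those with more than 20 members tested. Of 26 tested, 23 were higher in edited embryos over all 30, with a median log2 difference of 0.76 against 0.015 over all genes, and 1 rose (*Gdf9*) and none fell. *Zp1*, of the egg coat, rose in the eBE run from 0, 0.533 and 1.97 FPKM (lowest, median and highest) in controls to 2.67, 4.93 and 6.71 in edited embryos. *Oosp1*, another oocyte-secreted protein, was named after its values were seen. Its median was 4.21 FPKM in controls and 19.5 in edited embryos with overlapping ranges, and the log2 difference of 1.81 missed the threshold (adjusted p = 0.112). *Khdc3* went the other way.

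Taken per embryo as the median over the 26 transcripts, each centred on the 16 controls (log2), the level was -0.433 to -0.007 in the 8 controls of the eBE run and 0.202 to 1.57 in its 6 edited embryos, without overlap. Over all embryos the ranges were -0.433 to 0.788 and -0.233 to 2.38, and the 2 highest values, 1.68 and 2.38, belonged to the embryos with a 4-cell column name. Without these and replicate 8, 22 of 25 were still higher, with a median of 0.54 against 0.092 for all genes. In the BE4 run it was 17 of 26, with a median of 0.26 against -0.14. When embryos were weighted by their spread, 8 of the 26 rose and 1 fell, where 3.53% of all genes rose and 0.871% fell. The same transcripts were also lower in the untargeted 8C pools than in the 4C pools, 73.1% of them with a median of -0.24, so that a shift of this kind and an earlier stage cannot be told apart for this group from these values.

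The 2-cell embryos of the series, 30 others with the same 3 kinds of injection, gave a like picture for this group: 27 of 30 were higher in edited embryos, 2 rose (*Zar1* and *Gdf9*) and none fell, with a median of 0.38 against 0.052 for all genes, of which 1.25% were called. Among these embryos, the control sgRNA replicate 8 also has a column named for the 4-cell stage. It lay at 0.395 on the stage scale, the highest of the 2-cell embryos. With 7620 genes at 1 FPKM or more, against at least 9168 in the others, it was kept in every fit of that stage. Its part in the shift was not tested. In the pools with siRNA against *Nr5a2*, 12 of 27 oocyte transcripts were higher at 8C, with a median of -0.22 against -0.21 for all genes.

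Genes of the 2-cell burst had a median of 0.71 (12 of 14 higher, none called), below that of the oocyte transcripts over all 30 embryos but above it in other settings, at 0.517 against 0.259 in the BE4 run and 0.826 against 0.743 without replicate 8. The 3 highest edited embryos had median levels of 3.73, 3.42 and 2.15 (log2, centred in the same way) in replicates 11, 13 and 14 against at most 1.08 in edited embryos of the eBE run and 0.787 in any control. Genes activated at 4C and 8C had a median of -0.20, with 36 of 59 lower and 1 fallen (*Hsd17b1*). Their median was 0.066 once replicates 8, 13 and 14 were left out, against 0.092 over all genes. In the eBE run their per-embryo medians were 0.185 to 0.484 in edited embryos and 0.067 to 0.601 in controls, a complete overlap. Genes of zygotic genome activation had a median of 0.112 over 1068 genes and no call. Pluripotency factors (24, median -0.081), primitive endoderm and FGF genes (17, -0.017), trophectoderm regulators (16, 0.173), Hippo genes (17, 0.203), and genes of compaction and polarity (26, -0.021) likewise had none. The rest of the groups examined had no call either: genes of the early 2C stage (32, median 0.587, 28 of them higher in edited embryos), of the late 2C stage (506, 0.073), of the PN5 zygote (40, -0.154) and of the inner cell mass (40, -0.116), the Obox family (5, 0.62, all of them higher), Krüppel-like factors (12, 0.284), the Id family and BMP signalling (14, 0.163), cyclins (16, 0.133), blastocoel fluid transport (11, -0.08), DNA methylation (10, 0.031), cholesterol and lipid handling (22, -0.163), heat shock (15, -0.129), the p53 response (21, 0.082), RNA sensing (7, 0.154) and retinoic acid handling (3, -0.015). When embryos were weighted by their spread, some of these groups did hold calls, beside the 3.53% of all genes that rose and the 0.871% that fell. Genome activation genes had 49 that rose and 7 that fell, late 2C genes 18 and 4, inner cell mass genes 2 and 1, PN5 genes 0 and 2, and genes activated at 4C and 8C 1 and 1. Primitive endoderm and FGF genes had 3 that rose, trophectoderm regulators 2 (the keratins *Krt8* and *Krt18*, adjusted p = 0.048 and 0.047, chosen after their values were seen), and 1 each rose among 2-cell burst genes, early 2C genes, cyclins and genes of the p53 response, of compaction, of DNA methylation and of BMP signalling. Pluripotency factors and heat shock genes had 1 each that fell. The Hippo, Obox, Krüppel-like, nuclear receptor, blastocoel, cholesterol, RNA sensing and retinoic acid groups had none.

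Genes that act on uracil in DNA and in base excision repair were examined because the editor makes uracil. Of 16 tested, 14 were lower in edited embryos, with a median of -0.276, and none was called. Over all genes 4724 of 9760 were lower, with a median of 0.015. *Ung*, the main uracil glycosylase, was at 45.8, 95.1 and 138 FPKM in controls and 12.3, 89.9 and 140 in edited embryos. *Apex1*, the endonuclease of the next step, was at 43.0, 262 and 371 FPKM in controls and 22.5, 210 and 332 in edited embryos. Both ranges overlapped throughout, and the lowest value of each belonged to replicate 8. Without the 3 doubtful embryos the median of the group was -0.103 against 0.092 over all genes, and 12 of 16 were lower.

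**Figure D3:**
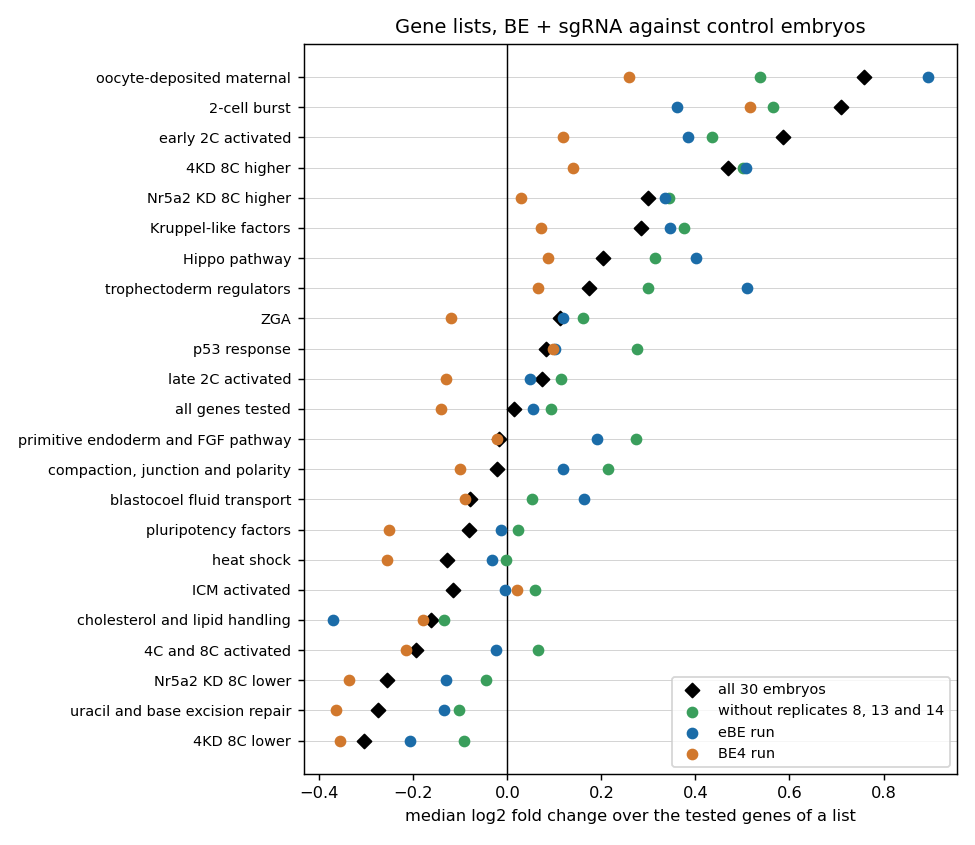
Median log2 fold change (horizontal axis) of each gene group, edited minus control embryos, in 4 settings, with the group named on the vertical axis. Oocyte-deposited transcripts lie to the right of 0 in each setting, at 0.76 with all embryos and 0.54 without replicates 8, 13 and 14, while the genes activated at 4C and 8C move from -0.20 to 0.066. All genes tested move from 0.015 to 0.092.

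The changes could be set beside those that siRNA against *Nr5a2* gave at 8C, since the study lists genes that were higher or lower in its KD pools. Those pools and their controls share no sample with the single embryos. The lists were chosen by the study on the siRNA pools and say nothing independent about KD itself. Of the tested genes listed as higher after *Nr5a2* KD, 380 (80.5%) were higher in edited embryos over all 30, against 51.6% of all genes, with a median of 0.30. Of 604 listed as lower, 477 were lower and 127 higher, with a median of -0.256. Few single genes passed: 5 of the higher list rose, 1.06% of it (*1700017B05Rik*, *Endod1*, *Map4k5*, *Phyhipl* and *Tekt2*) and 1 of the lower list fell, 0.166% of it (*Fdx1*). Read the other way, 5 of the 13 genes that rose were on the higher list, 38.5% against 4.84% of all genes tested, and in the eBE run 9 of 26 (34.6%) were. Of the 8 that fell in the eBE run, 6 (75.0%) were on the lower list, which holds 6.19% of the genes tested: *Bhmt*, *Btrc*, *Calcoco2*, *Gpr161*, *Khdc3* and *Rogdi*. None of the 34 went against these *Nr5a2* lists, but with only 4.84% and 6.19% of the genes tested on them few could do so. The lists are those of the table used here, which holds fewer genes than the text of the study counts. For the lists after combined KD of all 4 receptors the shares were 87.2% higher of 172 (median 0.469) and 17.6% higher of 279 (median -0.304). There 1 gene that rose in the eBE run, *Isl2*, was on the list of genes lower after the combined KD.

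The separate runs shared this order, from different starting points. In the eBE run 81.6% of the higher list and 35.8% of the lower list were higher in edited embryos, against 55.8% of all genes. In the BE4 run it was 52.2% and 18.4%, against 35.3%. Without replicates 8, 13 and 14 it was 86.4% and 44.5%, against 62.8%. When embryos were weighted by their spread, 430 genes were called (4.41% of all). In that fit 67 of the higher list rose and none fell (14.2% of the list, against 3.53% of all genes), while 28 of the lower list fell (4.64%, against 0.871% of all genes) and 1 rose (*Mettl9*).

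Each embryo was also given the median level of the higher list minus that of the lower list, on a log2 scale centred on the 16 controls. Edited embryos ran from 0.153 through 0.392 to 1.51 and controls from -0.358 through -0.124 to 1.37. Of the 16 controls, 14 lay below the lowest edited embryo, and the exceptions were BE replicate 3 at 0.382 and sgRNA replicate 7 at 1.37. In the eBE run the 6 edited embryos, at 0.169 to 0.49, all lay above the 8 controls, at -0.249 to 0.117. In the BE4 run the groups overlapped, at 0.153 to 1.29 and -0.358 to 1.37. The highest values of all went with the lowest stage positions: the embryos with a 4-cell column name were at 1.47 and 1.51, and sgRNA replicate 7 was the control nearest to the 4C pools. The same lists differ between untargeted 4C and 8C pools, the higher list with a median of -0.359 and 71.6% lower at 8C, the lower list with a median of 0.458 and 22.4% lower, against 49.3% of all genes. In the eBE run the stage positions were 0.56 to 0.887 in edited embryos and 0.778 to 1.015 in controls. Edited replicates 1, 5 and 6, at 0.718, 0.56 and 0.773, lay below every control of the run. The other edited embryos of the run lay within the range of its controls. The part of stage in the difference between the lists was not tested.

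**Figure D4:**
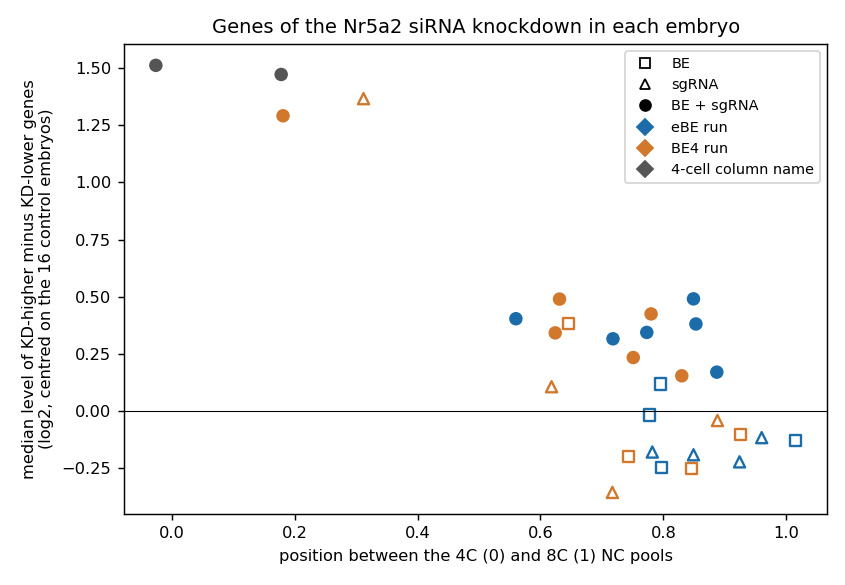
Median level of genes listed as higher minus that of genes listed as lower after *Nr5a2* KD (vertical axis, log2, centred on the 16 controls) in each embryo against its position between untargeted 4C pools (0) and 8C pools (1) on the horizontal axis, by group and run. Edited embryos of the eBE run lie between 0.169 and 0.49, above the controls of that run at -0.249 to 0.117, and the 2 embryos with a 4-cell column name lie at the upper left.

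A direct test of editing against KD, the change in the 30 embryos minus that between 2 *Nr5a2* KD and 2 control pools, gave 4 genes (0.0391% of 10242). They were *Klk8*, *Cnfn*, *Dmkn* and *Trp53tg5*, with differences of -1.44, 1.55, -2.63 and -1.41 (log2). *Klk8*, *Cnfn* and *Trp53tg5* were at 0 in all 30 embryos, and *Dmkn* was at 0 in 11 of 14 edited embryos and 15 of 16 controls, so the calls came from the pools. In the KD itself 13 genes were called in this fit (0.127%), where the spread is set mostly by the single embryos. The study, with another test, lists 474 genes as higher and 604 as lower after this KD. A small count in this fit therefore does not show that the KD, or its difference from editing, is small. The KD pools had *Nanog* at 1.04 and 1.09 FPKM and their controls at 15.2 and 19.4, a log2 difference of -3.14 beside the -1.40 in single embryos, but *Nanog* was not among the genes whose changes differed.

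The change at 8C was also tested against that at the 2-cell (2C) stage, and 5 genes differed (0.0385% of 12991), of which 4 are described here. *Tcp11l2*, a relative of a sperm motility protein, had means of 6.38 FPKM in edited embryos and 1.08 and 0.729 in BE and sgRNA embryos at 8C, while at 2C it had 0.976 in edited embryos and 4.68 and 1.78 in the others, a difference of 2.43 ± 0.48 between the 2 changes (log2, limma, adjusted p = 0.0223). *Gabre* and *Vash2* were near 0 in all 8C embryos and lower in edited embryos at 2C, and *Cct8l1* was low at both stages.

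The 2 control groups were compared with each other as a check on taking them together. Between BE and sgRNA embryos no gene passed (775 at an unadjusted p under 0.05, 7.94% of 9760, smallest adjusted p 0.593), but 732 of those 775 were higher in BE embryos and the median over all genes was 0.309, which median-ratio scaling brought to 0.0034. The 4 sgRNA embryos of the BE4 run had FPKM sums of 207918 to 268257 against 413397 to 474480 in the other 12 controls. Against the sgRNA embryos alone 8 genes were called, and against the BE embryos alone none (944 at an unadjusted p under 0.05).

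NR5A2 is known to bind a site with the letters AAGGTCA. These letters were looked for, on both strands, in the 300 bases around the start site (250 before and 50 after, RefSeq, GRCm38.p6), to see whether the genes that moved hold them there. Of 9760 genes tested 7396 matched a promoter and 3.93% of these held the letters, as did 3.80% on the list of genes lower after *Nr5a2* KD and 3.28% on the higher list. None of the 9 matched genes that rose and the 2 that fell over all embryos held them. Of the genes called in the eBE run, 1 of 21 that rose (*Tmem201*) and 2 of 5 that fell did. The latter 2 are shown with the letters in capitals, and the distance given for each is that of its first capital letter:

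*Bhmt*, from 73 bases before the start: cccagatcAAGGTCAgaggcctg

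*Gpr161*, from 81 bases before the start: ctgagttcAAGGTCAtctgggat

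The window of *Bhmt* is chr13:93637709-93638008 on the minus strand and that of *Gpr161* is chr1:165295516-165295815 on the plus strand. Both genes had lower levels in all 6 edited embryos of the eBE run than in any of its 8 controls. A match of 7 letters is a description of the sequence, and binding was not examined here.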

How the data were processed

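Single 8C embryos were profiled by Smart-seq2. The authors trimmed paired-end reads, mapped them to mm9 with TopHat and deposited 1 table of FPKM values per library, computed by Cufflinks on the UCSC refFlat annotation without scaling between libraries. No counts were used, so the depth in reads is unknown. The relative depth, read from the steps of low FPKM values, ranged from 0.763 to 1.35 in 29 libraries and is unreliable in replicate 8. The files hold 24006 genes, and 0 per-sample columns were left unused.

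Samples were grouped by their GEO titles. Genes with a mean of at least 1 FPKM in at least 1 group entered linear models fitted by limma (version 3.58.1, R version 4.3.3). The response was log2(FPKM + 1) with 1 mean per group (BE, sgRNA, BE + sgRNA), edited embryos against the mean of both controls, moderated with a trend and adjusted by Benjamini and Hochberg. Genes were called at an adjusted p under 0.05. Fold changes are on the log2(FPKM + 1) scale and understate the change of low genes. Nr5a2 was also tested by permutation. The fit with the 2C embryos used 60 embryos and that with the KD pools 34 libraries. Nothing says that embryos of one group came from separate litters, so p-values measure the spread between these embryos.

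The scripts were tested on simulated data. Alternatives were another pseudocount (0.1), no filter or a mean of 5 FPKM, median-ratio and quantile scaling, no trend, weights per embryo, each run, each control group, a run term, a replicate block, and leaving out single or doubtful embryos. The members and gene lists were chosen with earlier results of these data known, and the KD lists are the gene lists of the study. Genes named in the text are those the study names, up to 10 per direction by size with a mean of at least 5 FPKM, up to 4 called members per list, or the 2 most abundant where none was called, and 5 per difference test. Those called in the eBE run, and the rest of the 16, were named after their values were seen. Authors' tools for other data types were not used here. No 2 files were identical, and the highest correlation between 2 embryos was 0.9654. Of the genes that differed between 8C and 2C, 1 is not reported here.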

Additional observations from a re-analysis of the deposited data

Results flagged for a closer look

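Single embryos that stood apart from their group were looked for among the genes named, in groups of 8 embryos, by the gap to the nearest other embryo relative to the whole range. Of 149 groups 18 were picked out, where chance alone picks about 1 in 20. sgRNA replicate 7 accounts for 12 of them. It was lowest of the sgRNA embryos for Nr5a2 (7.98 FPKM), Pou5f1 (9.1), Gata6 (6.29), Fgfr2 (0.572), Tead4 (17.4), Klf5 (9.06), Satb1 (0.717), Nr1h2 (13.6) and Endod1 (0.084), and highest for 1700017B05Rik (2.19), Pptc7 (2.03) and Obox3 (5.09, all other sgRNA embryos at 0). Its position between the 4C and 8C pools was 0.312, the lowest of the controls. Without it 30 genes were called over all embryos in place of 16. BE replicate 7 was lowest of the BE embryos for Satb1 (9.29 FPKM), Rangap1 (32.0) and Rfxank (0.704), BE replicate 5 was lowest for Klf5 (72.4), and BE replicate 4 was lowest for Eif1a (68.8) and highest for Trim28 (125).

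The change with editing differed between the 8C and the 2C stage (log2 difference, limma, adjusted p under 0.05) for Tcp11l2 (2.43), Gabre (1.39), Vash2 (1.34) and Cct8l1 (-1.63). Gabre had 11 of 14 edited embryos and 15 of 16 controls at 0 FPKM at 8C, and Vash2 had 12 and 16, so that their differences come from the 2C embryos. Between editing and Nr5a2 KD it differed for Klk8 (-1.44), Cnfn (1.55), Dmkn (-2.63) and Trp53tg5 (-1.41), genes that were at or near 0 in the single embryos.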

How the results depend on the processing

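The number of genes called over all embryos, 16, depended on the setting more than any single value did. It was 1 with a pseudocount of 0.1, 2 without a filter, 0 with a mean of at least 5 FPKM, 25 with median-ratio scaling, 24 with quantile scaling, 0 without a trend, 430 with weights per embryo, 0 without replicates 13 and 14, 87 without replicate 8, 10 without all 3, 0 with a run term, 34 in the eBE run, 0 in the BE4 run, 0 against BE embryos alone and 8 against sgRNA embryos alone. Where it was 0, between 209 and 1046 genes had an unadjusted p under 0.05. The split of calls shifted from 13 higher and 3 lower to 16 and 9 with median-ratio and 15 and 9 with quantile scaling. With each embryo left out in turn (added after seeing the data) the counts ran from 0 to 14 for BE, 0 to 30 for sgRNA and 0 to 87 for BE + sgRNA embryos. At the limits of the study 2 genes were called with weights per embryo and 1 without replicate 8, in place of 0.

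Replicate numbers did not pair the embryos: of 24 pairs of same-numbered embryos 9 had a correlation of deviations over 0.1 (-0.268 to 0.423), and 2 of 24 embryos correlated best with their own number. With the number as a replicate block 0 genes were called (475 at an unadjusted p under 0.05).

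The difference between 8C and 2C, 5 genes, became 2 with a pseudocount of 0.1, 2 with a mean of at least 5 FPKM, 1 with median-ratio scaling, 4 with quantile scaling, 3 without a trend, 9 without replicates 13 and 14 and 12 without replicate 8. The difference from KD, 4 genes, became 8, 0, 13, 11 and 0 under the first 5 of these and 8 under each of the last 2, and 4 to 44 with each pool left out, where an arm of 1 pool is assumed to vary like the other groups. Between BE and sgRNA embryos it was 0 throughout. No named gene reversed its direction where it had been called, and of the list medians 4 moved by more than the spread between embryos, in the Obox family (1.25 with a pseudocount of 0.1), retinoic acid handling (0.505 in the eBE run) and the sperm markers (-0.165 and -0.162). The causes were not tested. The depth of the libraries limits what can be said of genes near 1 FPKM.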
